A study of Homo sapiens with 8 samples.

Results

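Genes of cholesterol synthesis, of its control by sterols, and of cholesterol uptake and efflux were followed in human mammary epithelial cells treated with ginkgolic acid, an inhibitor of SUMO conjugation. The set had 31 genes, taken by symbol from both deposited expression tables, in which 41862 genes of the NOTCH1-labelled line and 41830 of MCF10A stood on a row of their own. Of the 31 genes, 17 encode enzymes of synthesis, 4 control the transcription factor SREBP2, 4 act in uptake and transport inside the cell, and 6 act in efflux, its LXR regulators and storage as esters. A row of their own in both tables was found for 26 genes; CYP51A1, LSS, TM7SF2 and ABCG1 shared a row with other symbols, and MYLIP was listed more than once in the NOTCH1-labelled table.

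The 4 groups, with 2 samples each, were the NOTCH1-labelled line with 30 µM ginkgolic acid for 3 days, the same line with the solvent DMSO for 3 days, and MCF10A cells with each of the same treatments. MCF10A is a non-tumorigenic breast epithelial line, and the labels describe the NOTCH1 line as MCF10A in which the intracellular domain of NOTCH1 is overexpressed; the labels give neither the promoter that drives it nor whether the line is 1 clone. All groups grew in the same medium, which held horse serum, insulin, cholera toxin, epidermal growth factor and hydrocortisone. The tables give 1 FPKM (sequenced fragments relative to transcript length and to all mapped fragments) for each gene in each group. Replicate error and depth are therefore unknown for every value, and no test could be run; the word "higher" or "lower" compares values of groups only. Where 2 log2 ratios of a gene follow each other, the first is that of the NOTCH1-labelled line and the second that of MCF10A. In such bulk RNA, fewer cells of a type and less RNA per cell cannot be told apart.

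Cells make cholesterol from acetyl-CoA through mevalonate, isoprenoid phosphates, squalene and lanosterol. When sterols in the endoplasmic reticulum run low, SCAP escorts SREBP2 to the Golgi apparatus, where proteases free its transcription factor domain, and genes of synthesis and uptake are switched on; when sterols are high, INSIG proteins hold SCAP back. Oxidised sterols activate the nuclear receptors LXR alpha and LXR beta, which switch on efflux genes and MYLIP, an E3 ligase that degrades lipoprotein receptors. The DNA motif bound by SREBP2 usually works beside sites for NF-Y, which binds CCAAT boxes, and SP1, which binds GC boxes.

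Upstream sequences are shown for 6 genes: INSIG1, which had the highest ratio of ginkgolic acid to DMSO of the set in both lines; MSMO1 and HMGCS1, the enzyme genes with the highest ratios in MCF10A; MVK and SREBF2, which with MSMO1 hold the short sterol motif; and PMVK, the 1 enzyme gene at least 2-fold lower in MCF10A. They are the 250 bases before the transcription start, 5′ to 3′ on the gene's strand, from RefSeq on GRCh38.p14, matched by symbol, whereas positions in the tables are on hg19. Capitals mark CCAAT on either strand (ATTGG where it lies on the other strand) and the short sterol motif TCACNCCA. HMGCS1 has 2 listed start sites, and the one with CCAAT is printed.
INSIG1, chr7:155297628-155297877, plus strand: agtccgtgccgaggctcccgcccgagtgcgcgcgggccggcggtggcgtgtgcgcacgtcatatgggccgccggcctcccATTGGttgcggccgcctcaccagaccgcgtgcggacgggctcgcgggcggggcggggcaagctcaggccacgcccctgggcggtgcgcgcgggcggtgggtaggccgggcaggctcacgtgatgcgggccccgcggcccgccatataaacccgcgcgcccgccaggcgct
MSMO1, chr4:165327419-165327668, plus strand: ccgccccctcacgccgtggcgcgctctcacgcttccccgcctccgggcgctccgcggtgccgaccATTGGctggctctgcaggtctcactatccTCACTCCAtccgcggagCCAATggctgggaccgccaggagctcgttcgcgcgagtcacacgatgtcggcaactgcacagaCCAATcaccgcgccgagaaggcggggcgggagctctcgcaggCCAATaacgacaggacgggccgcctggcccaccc
HMGCS1, chr5:43313413-43313662, minus strand: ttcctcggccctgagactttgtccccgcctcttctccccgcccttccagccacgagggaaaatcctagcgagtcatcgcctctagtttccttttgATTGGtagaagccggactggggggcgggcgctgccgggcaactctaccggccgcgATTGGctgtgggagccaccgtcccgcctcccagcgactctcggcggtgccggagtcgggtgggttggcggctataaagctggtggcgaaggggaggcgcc
MVK, chr12:109573544-109573793, plus strand: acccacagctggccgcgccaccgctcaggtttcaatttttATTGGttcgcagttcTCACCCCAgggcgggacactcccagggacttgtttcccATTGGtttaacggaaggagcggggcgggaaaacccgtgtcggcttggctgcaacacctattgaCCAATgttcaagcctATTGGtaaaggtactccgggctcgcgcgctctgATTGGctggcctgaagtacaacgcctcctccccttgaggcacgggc
SREBF2, chr22:41832855-41833104, plus strand: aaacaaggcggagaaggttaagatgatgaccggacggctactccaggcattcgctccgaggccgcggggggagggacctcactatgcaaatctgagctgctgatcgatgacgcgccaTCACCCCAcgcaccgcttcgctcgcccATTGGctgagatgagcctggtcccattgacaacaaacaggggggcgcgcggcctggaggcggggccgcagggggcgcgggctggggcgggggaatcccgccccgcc
PMVK, chr1:154936720-154936969, minus strand: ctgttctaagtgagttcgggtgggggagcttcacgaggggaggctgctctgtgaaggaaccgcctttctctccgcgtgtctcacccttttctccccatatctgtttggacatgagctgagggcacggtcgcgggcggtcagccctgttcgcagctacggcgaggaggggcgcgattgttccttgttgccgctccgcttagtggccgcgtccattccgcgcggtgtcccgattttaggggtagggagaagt

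RefSeq promoters were at hand for 27 of the 31 genes, and not for ACAT2, FDFT1, SQLE and ABCG1. The 14 synthesis genes searched include LSS, CYP51A1 and TM7SF2. They are thus not the same 14 as the enzymes with a row of their own. CCAAT stood within the 250 upstream bases of 12 of 14 synthesis genes, 2 of 4 control genes and 3 of 4 uptake and transport genes. It also stood there for 3 of 5 efflux, LXR and esterification genes. Of all 27305 genes 37.0% had it, counting a gene with a match at any of its listed start sites. MVK and NSDHL held 5 matches each upstream of their 1 listed start site, and IDI1 held 5 over its 3 listed start sites, whereas PMVK and CYP51A1 held none. The GC box GGGCGG stood upstream of 26 of the 27 genes, against 46.2% of all genes, with NSDHL as the exception. TCACNCCA was found in MVK, MSMO1 and SREBF2, against 3.92% of all genes, and the longer TCACNCCAC, which contains it, in SREBF2, against 1.09%. An LXR element of 2 AGGTCA repeats with 4 bases between them was found upstream of 0 of the 27, and of 5 of all 27305 genes. All motifs were searched on both strands, and a match is no evidence of binding.

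**Figure D1:**
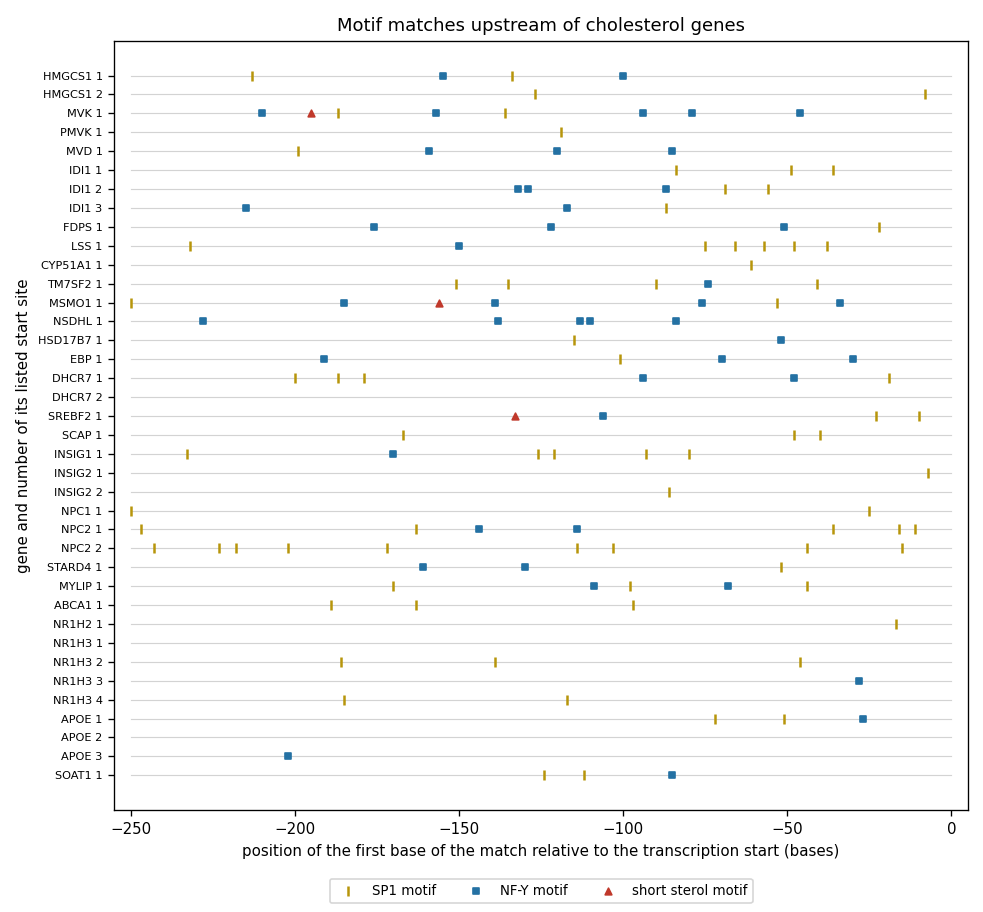
Positions of the NF-Y motif (CCAAT, squares), the SP1 motif (GGGCGG, bars) and the short sterol motif (TCACNCCA, triangles) in the 250 bases before each listed start site of the 27 genes with a RefSeq promoter, in bases from the start. Triangles stand at 3 genes, MVK, MSMO1 and SREBF2, and squares at 12 of the 14 synthesis genes with a promoter.

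The NOTCH1 gene itself was at 12.4 FPKM with ginkgolic acid, against 5.03 with DMSO, in the NOTCH1-labelled line, and at 6.18 with ginkgolic acid and 11.4 FPKM with DMSO in MCF10A, so its DMSO level goes against the label and directions between the lines rest on the label. Epithelial markers with a row of their own, 7 in the NOTCH1-labelled line and 6 in MCF10A, were above 1 FPKM in every group, but their ratios went in both directions. EPCAM was at 223 with ginkgolic acid and 91.6 FPKM with DMSO in the NOTCH1-labelled line and 110 with ginkgolic acid and 41.2 FPKM with DMSO in MCF10A. CDH1 was at 63.9 with ginkgolic acid and 65.8 FPKM with DMSO in the NOTCH1-labelled line, and at 39.2 with ginkgolic acid and 96.6 FPKM with DMSO in MCF10A. The basal marker KRT5 was at 614 with ginkgolic acid and 990 FPKM with DMSO in the NOTCH1-labelled line. The basal markers KRT14 and TP63 were there at 24.0 and 14.2 FPKM with ginkgolic acid, against 16.2 and 15.0 with DMSO. In MCF10A they were at 5.68 and 8.53 FPKM with ginkgolic acid, against 21.8 and 20.5 FPKM with DMSO. KRT8 and KRT18 were at 328 and 238 FPKM with ginkgolic acid, against 108 and 78.1 with DMSO, in the NOTCH1-labelled line. In MCF10A they were at 180 and 167 FPKM with ginkgolic acid, against 108 and 76.0 with DMSO. The 3 leukocyte markers with a row of their own (PTPRC, CD14 and CSF1R) summed to 12.4 FPKM with ginkgolic acid, against 9.82 with DMSO, in the NOTCH1-labelled line, and to 11.0 with ginkgolic acid and 16.5 FPKM with DMSO in MCF10A. With the 4 fibroblast markers the sums were 10.6 with ginkgolic acid and 8.28 FPKM with DMSO, and 13.1 with ginkgolic acid and 12.5 FPKM with DMSO in MCF10A. The 3 endothelial markers summed to 2.75 with ginkgolic acid and 3.63 FPKM with DMSO, and to 4.45 with ginkgolic acid and 10.7 FPKM with DMSO in MCF10A, and the 3 adipocyte markers to 1.73 with ginkgolic acid and 2.79 FPKM with DMSO, and to 1.62 with ginkgolic acid and 1.02 FPKM with DMSO in MCF10A. None of these markers was listed at 0, and their part in the results was not tested.

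With ginkgolic acid most synthesis enzymes were higher, and more of them passed 2-fold in the NOTCH1-labelled line than in MCF10A. Of the 14 enzymes with a row of their own, all of which reached 1 FPKM in every group, 10 were higher by 2-fold or more in the NOTCH1-labelled line, where 18.9% of all 19502 genes were, and 0 were lower by 2-fold or more, where 18.8% were. In MCF10A 4 of the 14 were at least 2-fold higher, near the 24.4% of all 17639 genes that were, and 1 was at least 2-fold lower, where 15.2% were. Among genes that reached 1 FPKM in both groups, as all 14 enzymes did, 15.6% were higher and 9.0% lower by 2-fold in the NOTCH1-labelled line, and 11.8% were higher and 14.0% lower in MCF10A. Among protein-coding genes alone, 17.5% were higher and 13.3% lower by 2-fold in the NOTCH1-labelled line, and 15.9% and 15.4% in MCF10A. The ratio was above 0 for 13 of the 14 enzymes in the NOTCH1-labelled line, where 52.3% of all genes and 57.2% of protein-coding genes were, and for 11 of 14 in MCF10A, where 52.3% and 45.4% were. The median log2 ratio of the enzymes was 1.70 in the NOTCH1-labelled line and 0.60 in MCF10A, where all genes had medians of 0.06 and 0.07. Relative to the median of genes that reached 1 FPKM in both groups, which was 0.14 in the NOTCH1-labelled line and −0.11 in MCF10A, the enzyme medians were 1.56 and 0.70. Summed over the 14 enzymes, the level was 2128 FPKM with ginkgolic acid, against 636 with DMSO, in the NOTCH1-labelled line, and 1750 with ginkgolic acid and 857 FPKM with DMSO in MCF10A.

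**Figure D2:**
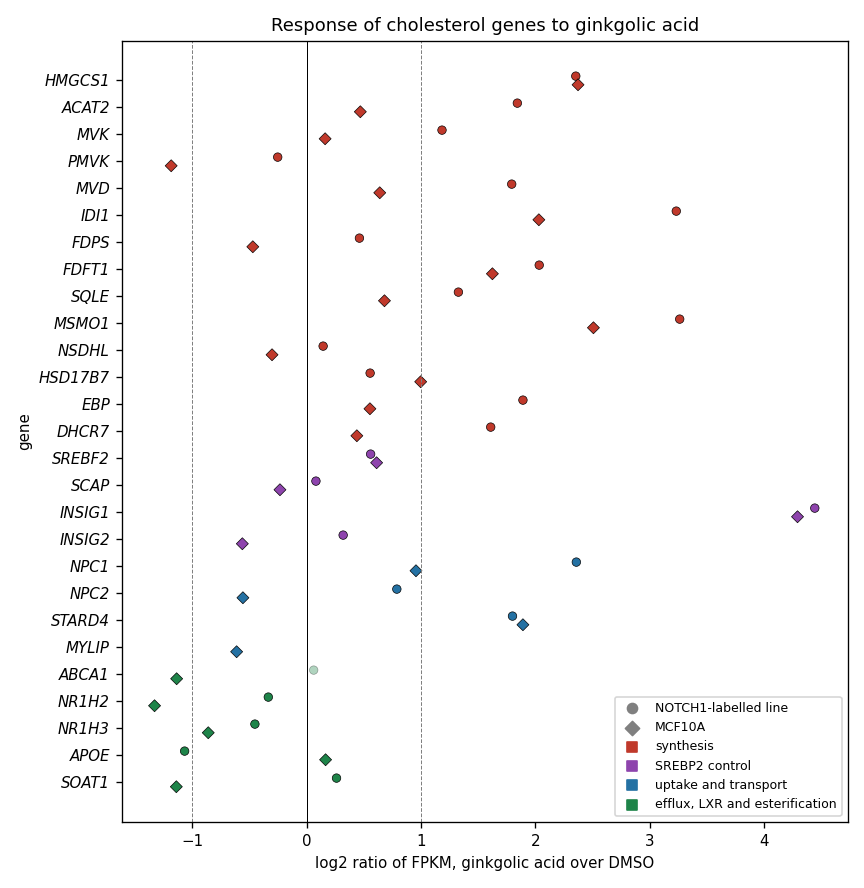
Log2 ratio of FPKM, ginkgolic acid over DMSO, for each gene with a row of its own (circles, NOTCH1-labelled line; diamonds, MCF10A; colours, role); dashed lines mark 2-fold and a pale point is under 1 FPKM in both groups. INSIG1 lies farthest right in both lines, at 4.44 and 4.29, and synthesis genes lie mostly right of 0.

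HMGCS1, which makes HMG-CoA at the head of the pathway (chromosome 5, 43287703 to 43313614, hg19), was at 116 FPKM with ginkgolic acid, against 22.6 with DMSO, in the NOTCH1-labelled line. In MCF10A it was at 96.1 with ginkgolic acid and 18.6 FPKM with DMSO. Its log2 ratios, 2.35 and 2.37, were thus nearly the same in both lines, unlike those of most enzymes. The row of CTD-2636A23.2 on the same locus was at 52.2 with ginkgolic acid and 9.96 FPKM with DMSO, and at 45.4 with ginkgolic acid and 14.1 FPKM with DMSO in MCF10A.

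ACAT2, which joins acetyl-CoA units in the step before HMGCS1, was at 35.0 FPKM with ginkgolic acid, against 9.75 with DMSO, in the NOTCH1-labelled line, and at 27.4 with ginkgolic acid and 19.8 FPKM with DMSO in MCF10A. The next enzyme in the list, mevalonate kinase MVK, was at 27.3 with ginkgolic acid and 12.01 FPKM with DMSO and, in MCF10A, at 17.8 with ginkgolic acid and 15.9 FPKM with DMSO. Both passed 2-fold in the NOTCH1-labelled line and neither in MCF10A. MMAB, an enzyme of cobalamin metabolism on the same locus as MVK, had a log2 ratio of 0.70 in the NOTCH1-labelled line and 0.04 in MCF10A. TCP1 and SOD2, whose rows share a locus with ACAT2 at far higher levels, had log2 ratios of −0.78 and −0.46 and of −1.21 and −0.71. WTAP, on that locus too, had 0.08 and −0.08. The part of these genes in the ACAT2 value was not tested.

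PMVK, which phosphorylates mevalonate phosphate, stood apart from the enzymes around it. It was at 8.13 FPKM with ginkgolic acid, against 9.69 with DMSO, in the NOTCH1-labelled line, and at 5.95 with ginkgolic acid and 13.5 FPKM with DMSO in MCF10A, a log2 ratio of −1.18 and the lowest of the enzymes. MVD, the decarboxylase that follows it, was at 98.2 with ginkgolic acid and 28.3 FPKM with DMSO in the NOTCH1-labelled line and at 82.0 with ginkgolic acid and 52.6 FPKM with DMSO in MCF10A, so these consecutive steps lay on opposite sides of 0 in both lines.

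IDI1, which isomerises isopentenyl diphosphate, had the second highest ratio of the enzymes in the NOTCH1-labelled line. There it was at 163 FPKM with ginkgolic acid, against 17.4 with DMSO, a log2 ratio of 3.23 that 234 of 19502 genes reached, and at 108 with ginkgolic acid and 26.5 FPKM with DMSO in MCF10A, a ratio of 2.03. On the same locus GTPBP4, a GTPase gene of ribosome assembly, had log2 ratios of −0.60 and −0.34, and IDI2, the second isomerase gene, −0.75 and −1.25. Of the 3 coding genes on this locus, IDI1 alone had a ratio above 0. FDPS, which makes farnesyl diphosphate, was at 281 FPKM with ginkgolic acid, against 204 with DMSO, in the NOTCH1-labelled line and at 184 with ginkgolic acid and 255 FPKM with DMSO in MCF10A, below 2-fold in both and on opposite sides of 0. RUSC1, on the same locus, had log2 ratios of 1.14 and −0.21. RP11-21N7.2, also on it, was at 143 with ginkgolic acid and 91.0 FPKM with DMSO in the NOTCH1-labelled line. In MCF10A it was at 94.0 with ginkgolic acid and 137 FPKM with DMSO. Its log2 ratios were 0.65 and −0.54, and its part in the FDPS value was not tested. The 7 named pseudogenes of FDPS reached at most 0.694 with ginkgolic acid and 1.09 FPKM with DMSO, and 1.06 with ginkgolic acid and 0.664 FPKM with DMSO in MCF10A, and reads they share with FDPS cannot be told apart in these tables.

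Squalene synthesis and the steps after it were led by FDFT1 and MSMO1. FDFT1, the squalene synthase and first enzyme committed to sterols (chromosome 8, 11653082 to 11696818, hg19), was at 528 FPKM with ginkgolic acid, against 129 with DMSO, in the NOTCH1-labelled line, and at 546 with ginkgolic acid and 177 FPKM with DMSO in MCF10A, with log2 ratios of 2.03 and 1.62. SQLE, which oxidises squalene, was at 225 with ginkgolic acid and 89.5 FPKM with DMSO in the NOTCH1-labelled line and at 160 with ginkgolic acid and 100.0 FPKM with DMSO in MCF10A, with log2 ratios of 1.33 and 0.68. MSMO1, the methyl sterol oxidase (chromosome 4, 166248775 to 166264312, hg19), had the highest ratio of all enzymes in both lines. It was at 471 with ginkgolic acid and 49.1 FPKM with DMSO in the NOTCH1-labelled line and at 363 with ginkgolic acid and 63.9 FPKM with DMSO in MCF10A, with log2 ratios of 3.26 and 2.51.

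The other enzymes of the sterol steps had smaller ratios than MSMO1. EBP, the sterol isomerase, was at 117 FPKM with ginkgolic acid, against 31.5 with DMSO, in the NOTCH1-labelled line, and at 87.9 with ginkgolic acid and 59.9 FPKM with DMSO in MCF10A. DHCR7, the reductase of the last step of one branch, was at 29.3 with ginkgolic acid and 9.6003 FPKM with DMSO in the NOTCH1-labelled line and at 44.0 with ginkgolic acid and 32.5 FPKM with DMSO in MCF10A. Both passed 2-fold in the NOTCH1-labelled line and not in MCF10A, though that difference was not tested. HSD17B7, a ketosteroid reductase, had a smaller ratio in the NOTCH1-labelled line, at 16.003 with ginkgolic acid and 10.9 FPKM with DMSO, than in MCF10A, at 15.2 with ginkgolic acid and 7.597 FPKM with DMSO, where it was 1.997-fold higher and just missed 2-fold. NSDHL, which removes a carboxyl group on the way, was at 14.0 with ginkgolic acid and 12.7 FPKM with DMSO in the NOTCH1-labelled line and at 11.6 with ginkgolic acid and 14.3 FPKM with DMSO in MCF10A.

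Enzyme genes on joined rows cannot be read alone and were not counted. CYP51A1, the lanosterol demethylase, shared its row with LRRD1, at 150 FPKM with ginkgolic acid, against 73.5 with DMSO, in the NOTCH1-labelled line and 219 with ginkgolic acid and 130 FPKM with DMSO in MCF10A. The row of LSS, the lanosterol synthase, and AP001468.1 was at 16.2 with ginkgolic acid and 14.7 FPKM with DMSO in the NOTCH1-labelled line and at 9.96 with ginkgolic acid and 19.0 FPKM with DMSO in MCF10A. TM7SF2, a sterol reductase, and VPS51 were at 61.9 with ginkgolic acid and 53.6 FPKM with DMSO and, in MCF10A, at 63.2 with ginkgolic acid and 118 FPKM with DMSO. Of these 3 rows, the one with CYP51A1 passed 2-fold upward in the NOTCH1-labelled line, and 0 passed 2-fold in MCF10A.

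The make-up of the summed enzyme level also differed between treatments. FDPS held the largest share with DMSO and FDFT1 with ginkgolic acid, in both lines. FDPS made up 13.2% of the sum with ginkgolic acid and 32.0% with DMSO in the NOTCH1-labelled line, and 10.5% with ginkgolic acid and 29.7% with DMSO in MCF10A. MSMO1 made up 22.1% with ginkgolic acid and 7.73% with DMSO in the NOTCH1-labelled line, and 20.8% with ginkgolic acid and 7.46% with DMSO in MCF10A. These shares use FPKM, a level per transcript length, and cover the 14 enzymes with a row of their own.

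**Figure D3:**
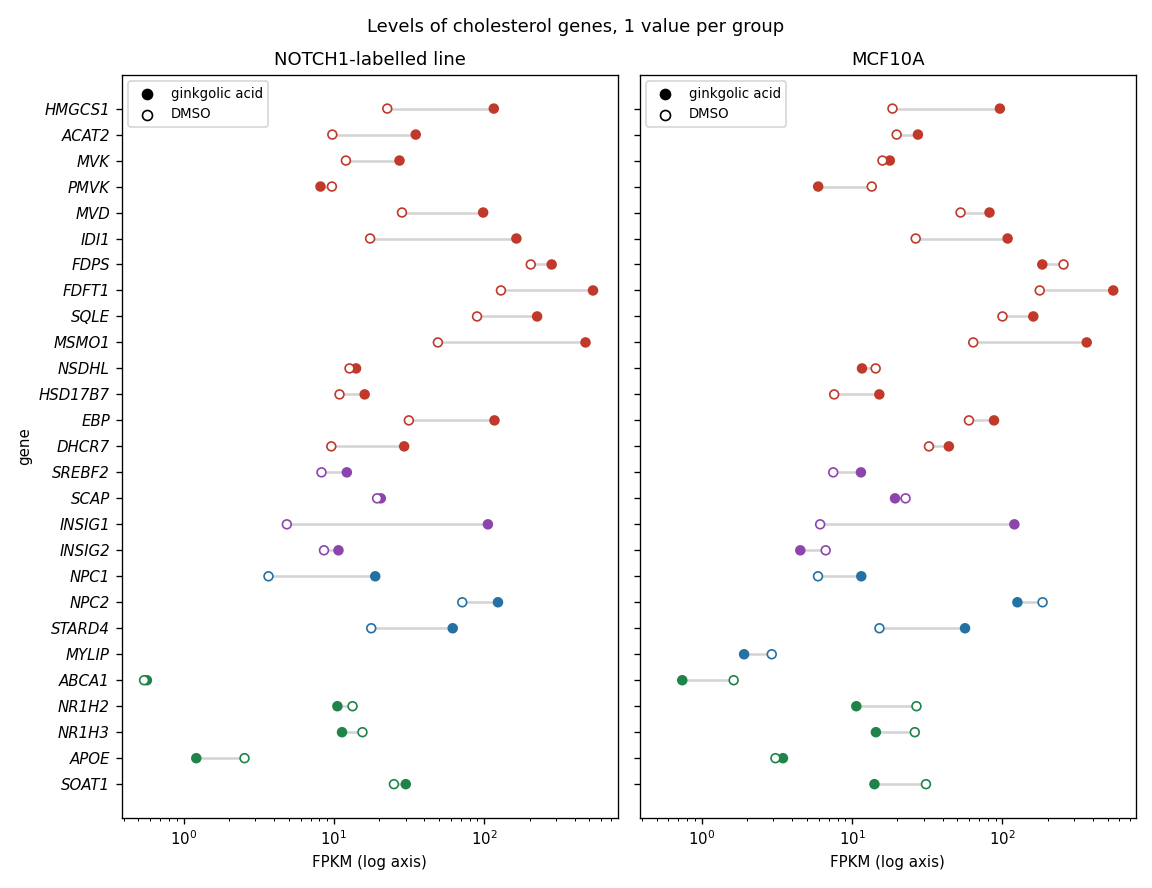
FPKM of each gene on a log axis with ginkgolic acid (filled) and DMSO (open), in the NOTCH1-labelled line (left) and MCF10A (right), coloured by role as synthesis (red), SREBP2 control (purple), uptake and transport (blue) and efflux, LXR and esterification (green). FDFT1 is highest with ginkgolic acid, at 528 FPKM in the NOTCH1-labelled line and 546 FPKM in MCF10A, and ABCA1 is lowest of the green genes.

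Among the 4 genes that control SREBP2, INSIG1 had by far the largest ratio and its paralog INSIG2 stayed within 2-fold. INSIG1, an SREBP2 target that retains SCAP in the endoplasmic reticulum (chromosome 7, 155089486 to 155101945, hg19), was at 106 FPKM with ginkgolic acid, against 4.86 with DMSO, in the NOTCH1-labelled line. In MCF10A it was at 120 with ginkgolic acid and 6.13 FPKM with DMSO. It was 21.7-fold and 19.6-fold higher, and a ratio as high was reached by 52 of 19502 genes in the NOTCH1-labelled line and by 127 of 17639 in MCF10A. INSIG2, the second retention protein, was at 10.7 with ginkgolic acid and 8.58 FPKM with DMSO in the NOTCH1-labelled line and at 4.52 with ginkgolic acid and 6.67 FPKM with DMSO in MCF10A, within 2-fold in both lines. With DMSO the level of INSIG1 was below that of INSIG2, and with ginkgolic acid it was above it, in both lines.

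SREBF2, which encodes SREBP2, was at 12.2 FPKM with ginkgolic acid, against 8.26 with DMSO, in the NOTCH1-labelled line, and at 11.4 with ginkgolic acid and 7.49 FPKM with DMSO in MCF10A, with log2 ratios of 0.56 and 0.61. SCAP, its escort, was at 20.5 with ginkgolic acid and 19.4 FPKM with DMSO in the NOTCH1-labelled line and at 19.3 with ginkgolic acid and 22.7 FPKM with DMSO in MCF10A; its log2 ratio of 0.08 in the NOTCH1-labelled line turns to −0.06 relative to the median gene. Neither passed 2-fold in either line. The microRNA gene MIR33A lies in an intron of SREBF2 and was listed at 0 FPKM in all 4 groups.

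Of the uptake and transport genes, STARD4 and NPC1 were higher and NPC2 and MYLIP were not 2-fold higher in either line. STARD4, a sterol carrier of the cytosol, was at 61.6 FPKM with ginkgolic acid, against 17.7 with DMSO, in the NOTCH1-labelled line, and at 56.4 with ginkgolic acid and 15.2 FPKM with DMSO in MCF10A, so at least 2-fold higher in both. Its row spans a locus that also holds NREP, which had log2 ratios of −0.37 and −0.54. NPC1, which carries cholesterol out of lysosomes, was at 18.8 with ginkgolic acid and 3.67 FPKM with DMSO in the NOTCH1-labelled line and at 11.5 with ginkgolic acid and 5.93 FPKM with DMSO in MCF10A, with log2 ratios of 2.36 and 0.96. C18orf8, on the same locus as NPC1, had 0.65 and 0.07, and NPC1 also holds a small Y RNA whose row was at 32.2 with ginkgolic acid and 0 FPKM with DMSO in the NOTCH1-labelled line and at 27.0 with ginkgolic acid and 0 FPKM with DMSO in MCF10A. The part of that RNA in the NPC1 value was not tested.

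NPC2, which hands cholesterol to NPC1, was at 123 FPKM with ginkgolic acid, against 71.3 with DMSO, in the NOTCH1-labelled line, and at 126 with ginkgolic acid and 185 FPKM with DMSO in MCF10A, on opposite sides of 0 and within 2-fold. ISCA2, on the same locus, had log2 ratios of 0.98 and 0.30. MYLIP was at 1.91 with ginkgolic acid and 2.92 FPKM with DMSO in MCF10A. In the NOTCH1-labelled table it had a row at 0.738 with ginkgolic acid and 3.31 FPKM with DMSO and another, on the same locus, listed at 0 with ginkgolic acid and 1857 FPKM with DMSO; MYLIP holds MIR4639, and neither row was counted. Of the genes counted, 2 of 3 were higher by 2-fold in the NOTCH1-labelled line, where 18.9% of all genes were, and 1 of 4 in MCF10A, which is near the 24.4% of all genes there.

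Of the efflux, LXR and esterification genes, 0 passed 2-fold upward in either line, where 18.9% and 24.4% of all genes did. In the NOTCH1-labelled line 4 reached 1 FPKM, of which 1 (APOE) passed 2-fold downward, near the 18.8% of all genes that did, and their median log2 ratio was −0.39. In MCF10A 5 reached 1 FPKM, of which 3 (ABCA1, NR1H2 and SOAT1) passed 2-fold downward, where 15.2% of all genes did, with a median of −1.14. ABCA1 was counted through its DMSO level alone and so had to be lower, and the median is its own ratio. Without it 2 of 4 passed downward, where 14.0% of genes with 1 FPKM in both groups did, and the median was −0.999; it was −0.82 with 1 FPKM added to each level. Neither of the exporter genes ABCA1 and ABCG1 was among those counted in the NOTCH1-labelled line, and in MCF10A ABCA1 alone was. The efflux, LXR and esterification values ranged over −1.07 to 0.26 in the NOTCH1-labelled line and −1.33 to 0.17 in MCF10A. Synthesis values ranged over −0.25 to 3.26 and −1.18 to 2.51. The ranges overlap in both lines, at PMVK, NSDHL and, in MCF10A, FDPS and MVK on the synthesis side.

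ABCA1, the exporter that loads cholesterol onto apolipoprotein A-I, was near the limit of what counted as measured. It was at 0.570 FPKM with ginkgolic acid, against 0.546 with DMSO, in the NOTCH1-labelled line, under 1 FPKM in both groups, and at 0.742 with ginkgolic acid and 1.63 FPKM with DMSO in MCF10A. ABCG1, which exports cholesterol to larger lipoproteins, stood on a row joined with 3 transcripts, at 4.31 with ginkgolic acid and 6.40 FPKM with DMSO in the NOTCH1-labelled line and at 6.49 with ginkgolic acid and 7.70 FPKM with DMSO in MCF10A. Neither exporter was higher at 2-fold in either line.

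NR1H2, which encodes LXR beta, was at 10.5 FPKM with ginkgolic acid, against 13.3 with DMSO, in the NOTCH1-labelled line, and at 10.7 with ginkgolic acid and 26.8 FPKM with DMSO in MCF10A, a log2 ratio of −1.33. NR1H3, which encodes LXR alpha, was at 11.3 with ginkgolic acid and 15.5 FPKM with DMSO in the NOTCH1-labelled line and at 14.4 with ginkgolic acid and 26.1 FPKM with DMSO in MCF10A, a log2 ratio of −0.86. Both receptors were lower with ginkgolic acid in both lines, past 2-fold for NR1H2 in MCF10A. ACP2, on the same locus as NR1H3, had log2 ratios of −0.82 and 0.61. SOAT1, which esterifies cholesterol for storage, was at 30.0 with ginkgolic acid and 25.1 FPKM with DMSO in the NOTCH1-labelled line and at 14.1 with ginkgolic acid and 31.0 FPKM with DMSO in MCF10A. APOE, the apolipoprotein of lipid export and uptake, was at 1.21 with ginkgolic acid and 2.54 FPKM with DMSO in the NOTCH1-labelled line and at 3.47 with ginkgolic acid and 3.09 FPKM with DMSO in MCF10A, low levels on opposite sides of 0.

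Across the lines, 6 genes passed 2-fold upward in both, namely HMGCS1, IDI1, FDFT1, MSMO1, INSIG1 and STARD4. They were 6 of the 25 genes measured in both lines, where 5.17% of all 15487 genes passed in both. A further 7, ACAT2, MVK, MVD, SQLE, EBP, DHCR7 and NPC1, passed 2-fold upward in the NOTCH1-labelled line alone, where 11.5% of all genes did. In MCF10A alone 0 passed upward, where 16.3% of all genes did. Relative to the median gene, NPC1 passed in both lines, at 1.06 in MCF10A, and HSD17B7 in MCF10A alone, at 1.10. PMVK, NR1H2 and SOAT1 were at least 2-fold lower in MCF10A and within 2-fold in the NOTCH1-labelled line. These 3 of 25 are near the 10.4% of all genes that were 2-fold lower in MCF10A and not 2-fold lower in the NOTCH1-labelled line. The log2 ratios of the 25 genes had a Pearson correlation of 0.87 between lines, a description over genes and not over samples, and 18 of the 25 lay on the same side of 0. Neither value is given over all genes, so neither sets these 25 apart.

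**Figure D4:**
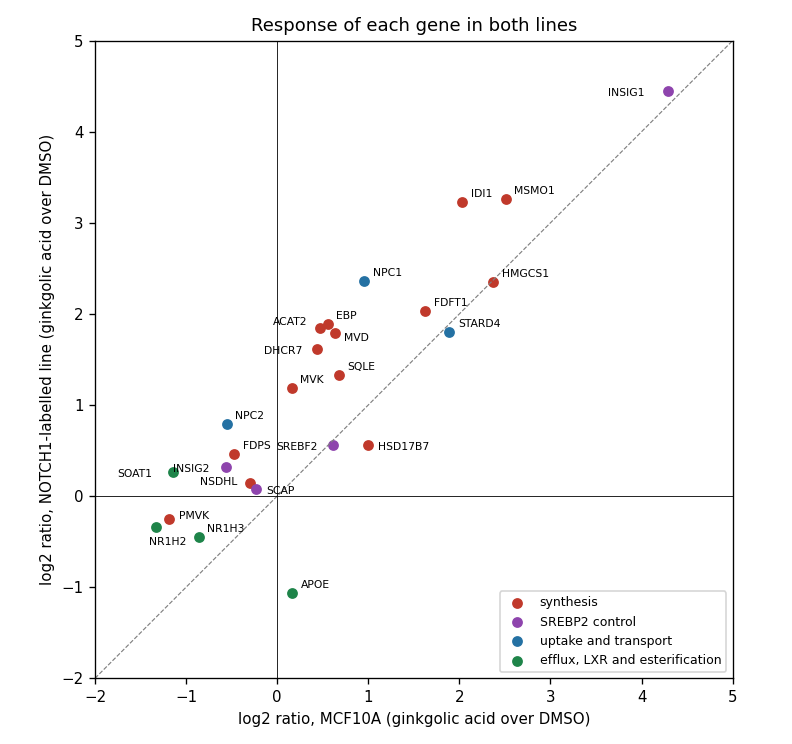
Log2 ratio of ginkgolic acid over DMSO in the NOTCH1-labelled line (vertical) against that in MCF10A (horizontal) for the 25 genes measured in both, coloured by role; on the dashed line the lines are equal. Of the 25 genes 20 lie above it, HMGCS1, INSIG1, STARD4 and SREBF2 lie near it, and APOE and HSD17B7 lie farthest below.

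The difference of the log2 ratios, NOTCH1-labelled line minus MCF10A, had a median of 0.93 over the 14 enzymes, where all genes had 0.22. It was above 0 for 12 of the 14, where 57.4% of all genes were, and at least 1 for 6, where 21.6% of all genes were. It was −1 or less for 0 of the 14, where 22.4% of all genes were. Over the first arm of 7 enzymes, up to FDPS, the median was 1.02, and over the 7 measured after it 0.65. The largest differences of the whole set were those of NPC1 and SOAT1, at 1.40 each, ACAT2, at 1.37, NPC2, at 1.35, and EBP, at 1.34. At the other end, the differences of HMGCS1, SREBF2, STARD4 and INSIG1 were −0.02, −0.05, −0.09 and 0.15, and those of HSD17B7 and APOE −0.44 and −1.23. Relative to the median gene of each line, the median difference of the 14 enzymes was 0.68. Of the 6 enzymes with a difference of at least 1, MVK, MVD, DHCR7 and IDI1 were at 1.02, 1.15, 1.17 and 1.20. Relative to the median gene these fall under 1. None of these differences was tested, and each rests on 4 values without replicate error.

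The tables were normalized separately, so a factor of unknown size stands between their levels. With ginkgolic acid 12 of the 14 enzymes were higher in the NOTCH1-labelled line than in MCF10A, with a median log2 ratio of 0.36, and with DMSO 12 of the 14 were lower in it, with a median of −0.43. Over all 15487 genes these medians were 0.27 with ginkgolic acid and 0.12 with DMSO. Of these genes, 9779 were higher in the NOTCH1-labelled line with ginkgolic acid, and 6701 were lower in it with DMSO. DHCR7 was lowest in the NOTCH1-labelled line with DMSO, at a log2 ratio of −1.76 to MCF10A, and with ginkgolic acid stood at −0.59, so its larger response went with a lower level in both treatments. ACAT2 stood at 0.35 with ginkgolic acid and −1.02 with DMSO, and MVK at 0.62 with ginkgolic acid and −0.41 with DMSO. HMGCS1 stood at 0.27 with ginkgolic acid and 0.29 with DMSO, and was thus higher in the NOTCH1-labelled line in both treatments alike.

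**Figure D5:**
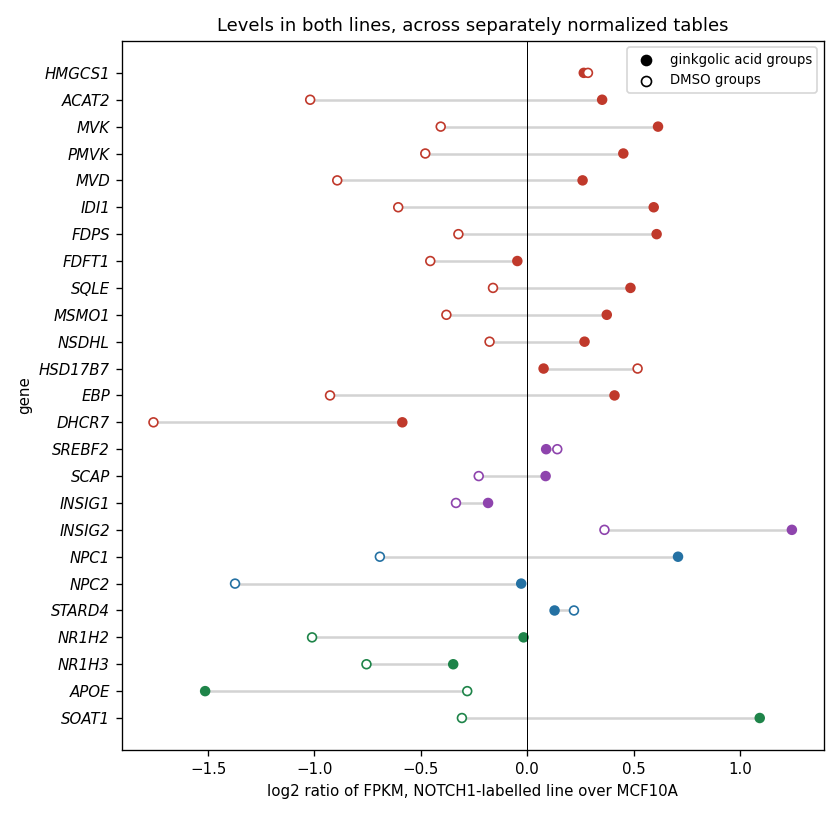
Log2 ratio of FPKM, NOTCH1-labelled line over MCF10A, with ginkgolic acid (filled) and DMSO (open) for the 25 genes measured in both lines, coloured by role, across tables normalized separately. For 12 of the 14 enzymes (red) the filled point lies right of 0 and for 12 the open point lies left of it, and for HMGCS1 both lie near 0.27. Of all 15487 genes, which are not drawn, 9779 were above 0 with ginkgolic acid and 6701 below 0 with DMSO.

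Beyond the 31 genes, 40 further genes of sterol handling were counted from a list written for this comparison, of which 36 had a row of their own and 30 were measured in each line. In the NOTCH1-labelled line 3 of 30 passed 2-fold upward, where 18.9% of all genes did, and 0 downward, where 18.8% did, and the median log2 ratio was 0.22. In MCF10A 0 were higher at 2-fold, where 24.4% of all genes were, and 6 lower, near the 15.2% of all genes, with a median of −0.39. CYP7B1 in the NOTCH1-labelled line, and STARD5 and IDI2 in MCF10A, reached 1 FPKM through 1 group alone and so had to differ in the direction counted. Over the genes with 1 FPKM in both groups, 2 of 29 were higher and 0 lower in the NOTCH1-labelled line, where 15.6% and 9.0% of all such genes were. In MCF10A 0 of 28 were higher, where 11.8% of all such genes were, and 4 lower, near the 14.0% of all such genes. The 3 higher genes, named after their values were seen, were COQ2, of ubiquinone synthesis, at 22.0 FPKM with ginkgolic acid, against 7.13 with DMSO, DHDDS, of dolichol synthesis, at 29.1 with ginkgolic acid and 12.02 FPKM with DMSO, and CYP7B1, an oxysterol hydroxylase, at 1.66 with ginkgolic acid and 0.326 FPKM with DMSO. Among the 6 lower genes in MCF10A, also named after their values were seen, C12orf49, a cofactor of the protease that releases SREBPs, was at 2.95 with ginkgolic acid and 11.9 FPKM with DMSO, and RXRA, the partner receptor of LXRs, at 4.44 with ginkgolic acid and 12.8 FPKM with DMSO. Of the 29 measured in both lines, 0 were at least 2-fold apart in the same direction in both.

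The site-1 protease gene MBTPS1, which cuts SREBPs in the Golgi apparatus, was at 40.4 FPKM with ginkgolic acid, against 35.7 with DMSO, in the NOTCH1-labelled line, and at 27.3 with ginkgolic acid and 36.9 FPKM with DMSO in MCF10A. GGPS1, which draws farnesyl diphosphate into protein prenylation, was at 82.3 with ginkgolic acid and 49.7 FPKM with DMSO in the NOTCH1-labelled line and at 74.5 with ginkgolic acid and 61.3 FPKM with DMSO in MCF10A. The scavenger receptor gene SCARB1, which takes up cholesterol esters, was at 26.8 with ginkgolic acid and 16.1 FPKM with DMSO in the NOTCH1-labelled line and at 11.5 with ginkgolic acid and 19.4 FPKM with DMSO in MCF10A. These 3 genes were within 2-fold in both lines, and were named after their values were seen.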

How the data were processed

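Total RNA of 8 samples in 4 groups was prepared with an RNeasy kit; per the labels' protocols, the library kit was ScriptSeq Complete Gold. The authors deposited 2 tables, and per the file headers the values are FPKM, 1 per gene and group. The submitters' processing notes name Cuffdiff 2.1.1, Cufflinks 2.1.1, Bowtie2 2.1.0, TopHat2 2.0.8b and GRCh37 (hg19). Which annotation and strand setting were used, and how 2 samples gave 1 value, is not stated there, so reads of overlapping and antisense genes cannot be told apart. The table starts count from 0 and are printed from 1.

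Rows without a gene name, joined rows, symbols listed more than once, small RNAs and loci under 200 bases were left out of counts. A gene counted as measured where 1 or both groups of a table reached 1 FPKM. Log2 ratios, ginkgolic acid over DMSO, used no pseudocount; genes at 0 in a group got none. In place of a test, a size rule of at least 2-fold was used. The ratio code was tested on simulated data. Gene types and small RNAs came from GENCODE 29. Every gene of the set is named; of the other sterol genes the rule named those at least 2-fold apart in the same direction in both lines, and it took 0 genes. The set, the lists and the printed sequences were chosen with earlier results of these data known. Python 3.11.15, numpy 2.4.6, pandas 2.3.3 and matplotlib 3.10.9 were used.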

Additional observations from a re-analysis of the deposited data

How the results depend on the processing

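Of 762 values recomputed under 6 planned settings and 4 added after seeing the data, 728 kept their direction and their side of 2-fold, or for counts stayed within 1.5 times. Many of the 762 are log2 ratios of single genes, which can change only with 1 FPKM added or relative to the median gene. Under the other settings those ratios stay the same by construction, so 728 of 762 is no measure of stability. The median log2 ratio of efflux, LXR and esterification genes in MCF10A, −1.14, was −0.82 with 1 FPKM added, −0.86 as a mean, −0.998 with joined rows kept and −0.999 where both groups had to reach 1 FPKM, so it rests near the 2-fold limit. The number of genes past 2-fold downward in the NOTCH1-labelled line, 1 (APOE), was 0 with a minimum of 5 FPKM and 0 with 1 FPKM added, and 2 with the MYLIP row above 0 kept. Relative to the median gene, the number at least 2-fold higher in MCF10A, 6 of 27, was 8. In the main setting the 6 of 27 are near the 24.4% of all genes. In the NOTCH1-labelled line 13 of 25 passed 2-fold upward, where 18.9% of all genes did. This number was 8 without the 9 genes that share a locus with another coding gene. All 9 were among the 25, so fewer genes were counted as well. Without those genes MYLIP alone was left of the uptake and transport genes in MCF10A. The median there, 0.20 in the main setting, thus became the ratio of MYLIP, −0.61. In the NOTCH1-labelled line no gene of that group was left, so the median had no value. Relative to the median gene, SCAP in the NOTCH1-labelled line turned to −0.059 and the median difference of the SREBP2 control genes between lines to −0.016. Without the 6 genes that hold a small RNA, the control median in MCF10A turned to −0.23. STARD4 alone was then left for the difference of uptake and transport between lines. The median difference, 1.35 in the main setting, thus became that of STARD4, −0.091. Except where fewer genes were counted, the cause was not tested. No paired analysis was possible because the tables hold 1 value per group, which also bars leaving out a replicate and any test; the authors' tables used here hold no q-value. Low levels such as those of ABCA1, APOE and MYLIP are the least certain, and depth is unknown.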
